A study of Mus musculus with 17 samples.

Results

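Gene expression was compared between kidney macrophages of NZB/W mice in treated remission and those of mice with active lupus nephritis. NZB/W is a hybrid mouse strain that spontaneously develops an autoimmune disease like human lupus, with immune complexes in the kidney, proteinuria and loss of renal function. The cells were sorted by flow cytometry for high surface F4/80, a macrophage protein. The samples were chosen by their titles, and they are 11 of the 17 Affymetrix arrays of the study: 4 remission and 7 nephritic arrays. The 6 other arrays come from young prenephritic NZB/W mice of 8 to 16 weeks, and serve here as a reference level. Nephritic mice were sampled 2 to 6 weeks after proteinuria began, before terminal renal failure, and the labels name no treatment for them. Remission mice were sampled 3 to 4 weeks after they reached complete remission. They had been given cyclophosphamide (1 dose), CTLA4Ig (6 doses) and an antibody to CD154. All 3 agents go with remission in every sample, so remission and the direct action of the drugs cannot be told apart, and the labels give no age for either group. The labels do not say whether each sample is another mouse. The p-values therefore speak only of the spread among these arrays, which may be partly technical.

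F4/80hi cells are the main resident macrophages of the kidney. Resident macrophages are seeded early in life, keep themselves by local division and are joined by monocytes from blood during inflammation. They take up immune complexes through Fc receptors, clear dying cells, and signal to T and B cells. Cyclophosphamide is an alkylating drug that kills dividing cells. CTLA4Ig is a soluble receptor that covers CD80 and CD86 on antigen-presenting cells and so keeps them from CD28 on T cells. Anti-CD154 blocks the CD40 ligand of T cells, which otherwise stimulates CD40 on macrophages and B cells.

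All values are log2 levels made by RMA, so a difference of 1 is a 2-fold change. Correlations over 15780 genes ran from 0.977 to 0.994 within the remission arrays, from 0.972 to 0.994 within the nephritic arrays, and from 0.942 to 0.991 between them. The median SD of a gene was 0.161 in remission and 0.172 in nephritic arrays. Adgre1, which encodes F4/80, lay at 13.21, 13.04, 13.32 and 13.34 in remission replicates 1 to 4 and from 13.14 to 13.38 (median 13.22) in nephritic arrays. Csf1r, Cd68, Mrc1, Cx3cr1 and Ptprc, which encode the CSF-1 receptor, CD68, the mannose receptor, the fractalkine receptor and CD45, differed by 0.08, 0.03, 0.07, 0.02 and −0.09 (remission minus nephritic, adjusted p of 0.32 or more by limma). These genes were therefore high in both groups. Other genes of macrophages, Itgam, Mertk and Fcgr1, were called lower in remission and are described below. Kidney tubule genes differed in level between arrays. The mean level of 30 proximal tubule genes ran from 7.41 to 10.5 in nephritic and from 9.61 to 11.1 in remission arrays, with 1 gene dim in both groups, that is, with means below 5.03, the lower quartile of probe set means. That of 31 distal tubule and collecting duct genes ran from 7.21 to 9.51 and from 8.80 to 10.2, with 0 such genes. A tubule score, the centred mean of these 61 genes, was highest in remission replicate 2 (1.35) and lowest in nephritic replicate 3 (−1.97). Within remission it was 1.01, 1.35, 0.63 and −0.08 in replicates 1 to 4. The fit was therefore repeated with this score as a covariate. Of 258 called genes named here, 204 kept their call with the score, and 190 kept it without any 1 array. The genes that lost their call with the score are named beside their lists, as are lists whose count of lower genes moved by over 1.5 times with it. Many lists held 0 or 1 higher gene, and such counts often moved by 1 or more without a single array.

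In remission 516 genes were higher (3.27% of 15780) and 1584 lower (10.0%) than in nephritic arrays, by limma at an adjusted p under 0.05 (13.3% called in either direction). The median difference over all genes was −0.03. Counts in the gene lists below are to be read beside the shares of all genes, 10.0% lower and 3.27% higher. Of the called genes, 93 were at least 2-fold higher (0.589%) and 285 at least 2-fold lower (1.81%). In 269 genes (1.70%) every remission array lay above every nephritic array, and in 1096 (6.95%) every remission array lay below. Decreases were also the larger group with the tubule score as a covariate, with 502 genes higher and 904 lower. The counts depended on the remission arrays. Without remission replicate 1, 2 or 3 the counts were 195 and 926, 182 and 839, or 332 and 1162 (higher and lower), and without replicate 4, the array of lowest tubule score, they were 981 and 1940. The cells were measured in bulk, so fewer cells of a type and less RNA per cell cannot be told apart.

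**Figure D1:**
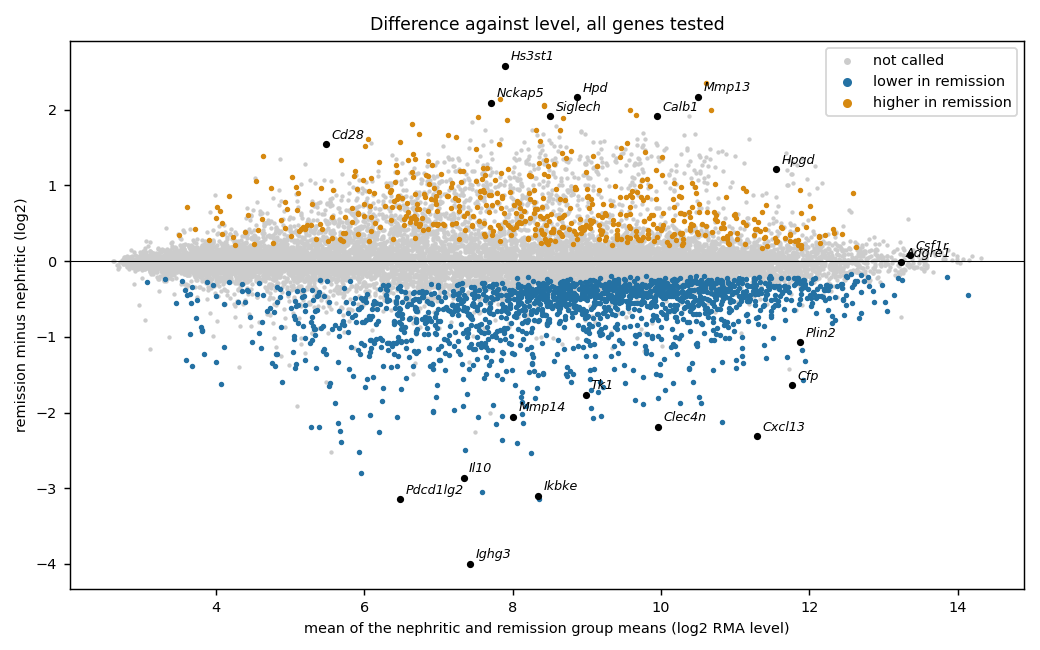
Remission minus nephritic difference (log2, vertical axis) against the mean of the group means (log2 RMA level, horizontal axis), with 1 point for each of 15780 genes. Blue points mark the 1584 genes lower and orange points the 516 genes higher in remission at an adjusted p under 0.05, and black points the genes named beside them, among which Adgre1 and Csf1r lie near 0.

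The broadest decrease was that of cell division genes. Of 50 measured genes of mitosis and chromosome segregation, 43 were lower in remission and 0 higher (86.0% against 10.0% of all genes), with a median difference of −1.05. In 38 of the 50 every remission array lay below every nephritic array, against 6.95% of all genes. Ccnb2, which encodes cyclin B2, a partner of the mitotic kinase, lay at 6.87, 7.26, 7.19 and 7.00 in remission replicates 1 to 4 and from 8.40 to 8.92 (median 8.61) in nephritic arrays. All 4 remission arrays lay more than 1 log2 unit below the lowest nephritic array, a 2.94-fold lower mean (−1.56 ± 0.19, adjusted p = 0.00015). Prenephritic arrays ran from 6.96 to 8.27 (median 7.38), below the nephritic range and over part of the remission range. The smallest p in the list was that of Kif2c, a kinesin that removes microtubule ends at the centromere (−0.76 ± 0.07, adjusted p = 1.3e-05). Cdc20, the activator of the ligase that starts anaphase, fell by a log2 difference of −1.12 ± 0.14 and Birc5, a subunit of the chromosomal passenger complex, by −1.49 ± 0.19. Melk and Kif4, a mitotic kinase and a chromosome-bound kinesin, differed by −1.09 ± 0.13 and −1.26 ± 0.16. Without any 1 array the list had between 39 and 45 lower genes. It had 40 with the tubule score as a covariate, 25 without remission replicates 1 and 2, and 35 without replicates 3 and 4, each of which leaves 2 remission arrays.

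Of 40 genes of DNA replication and nucleotide synthesis, 23 were lower and 0 higher, with a median difference of −0.46. Tk1, thymidine kinase of the salvage pathway, stood out. It lay at 7.88, 7.97, 8.56 and 7.98 in remission replicates 1 to 4 and from 9.58 to 10.24 (median 9.83) in nephritic arrays. Remission replicate 3 was the highest of the 4 and still about 1 log2 unit below the lowest nephritic array (−1.77 ± 0.17, adjusted p = 1.8e-05). Ccne1 and Cdc6, which encode cyclin E1 and a licensing factor of replication origins, fell by −1.16 ± 0.16 and −1.13 ± 0.20. Chaf1b, Rfc5 and Mcm2, which serve chromatin assembly, clamp loading and DNA unwinding, differed by −0.74 ± 0.10, −0.52 ± 0.087 and −0.75 ± 0.13. With the tubule score as a covariate 15 of the 40 were lower, and 4 without remission replicates 1 and 2. Of 30 regulators of cell cycle entry, 10 were lower and 0 higher. Foxm1, the activator of mitotic genes, fell by −0.94 ± 0.16, and Mybl2, its partner in late S phase, by −0.46 ± 0.12. Of the E2F family, E2f3, E2f7 and E2f8 fell by −1.17 ± 0.21, −1.20 ± 0.28 and −0.82 ± 0.18. Ccnd3, encoding the cyclin D3 that carries growth factor signals to the cell cycle, was at −0.73 ± 0.14. Without remission replicate 1 or 2 this regulator list had 5 lower genes each. It had 4 lower and 1 higher with the tubule score, where Mybl2 and E2f8 were not called.

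DNA damage genes were lower as well, in 10 of 31 and higher in 0. They included the repair genes Brca1 (−0.90 ± 0.14), Fancd2 (−0.80 ± 0.17) and Rad54l (−0.66 ± 0.14), which many dividing cells use. They also included the p53 targets Phlda3 (−1.30 ± 0.25), Ddb2 (−0.63 ± 0.11) and Fas (−0.87 ± 0.17), the last encoding a death receptor. The count was 6 without remission replicate 2, and 6 with the tubule score, where 2 others were higher. Of 27 apoptosis regulators, 7 were lower and 1 higher. Ripk3 and Mlkl, the kinase and the pore protein of necroptosis, fell by −0.90 ± 0.12 and −0.79 ± 0.16, and Birc3, an inhibitor of apoptosis, by −0.43 ± 0.095, while Bik, a cell death gene of the BCL2 family, rose by 0.97 ± 0.19. Apoptosis genes were lower in 4 with the tubule score, and Birc3 was not called.

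Promoters of division genes are known for short motifs. The CHR element, together with CCAAT boxes bound by NF-Y, marks genes of G2 and mitosis, E2F sites mark genes of S phase, and the interferon-stimulated response element (ISRE) marks interferon targets. RefSeq promoters (250 bases before to 50 after a start, GRCm38.p6) were found for 12585 of the 15780 genes. The 150 bases before the start are shown for 5 genes that were lower in remission. They were chosen for their matches after their values had been seen, to show how each motif sits near the start. Only the motifs listed for each gene are marked. Matches to others, such as CCAAT on the other strand in Mcm6 and CHR in Ifit1, stay in lower case. Capitals mark the matches on either strand: CCAAT in Ccnb2 (chr9:70421555-70421704, reverse strand), CHR (TTTGAA or TTTAAA) and CCAAT in Cdc20 (chr4:118437344-118437493, reverse strand) and Plk1 (chr7:122159285-122159434, forward strand), E2F (TTTCGCGC or TTTGGCGC) in Mcm6 (chr1:128359706-128359855, reverse strand), and ISRE (GAAANNGAAA) in Ifit1 (chr19:34640739-34640888, forward strand).
Ccnb2: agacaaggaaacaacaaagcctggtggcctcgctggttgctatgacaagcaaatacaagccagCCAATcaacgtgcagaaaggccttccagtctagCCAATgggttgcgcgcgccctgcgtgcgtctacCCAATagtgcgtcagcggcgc
Cdc20: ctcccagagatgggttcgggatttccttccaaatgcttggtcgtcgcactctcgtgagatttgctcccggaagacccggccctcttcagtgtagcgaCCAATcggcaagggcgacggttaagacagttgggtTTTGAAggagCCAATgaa
Plk1: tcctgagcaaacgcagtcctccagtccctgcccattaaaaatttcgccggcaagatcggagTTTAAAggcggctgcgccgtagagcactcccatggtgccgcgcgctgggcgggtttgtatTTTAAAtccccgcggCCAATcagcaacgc
Mcm6: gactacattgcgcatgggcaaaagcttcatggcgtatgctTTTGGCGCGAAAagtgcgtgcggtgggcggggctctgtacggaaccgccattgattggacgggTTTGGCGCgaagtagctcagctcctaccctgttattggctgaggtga
Ifit1: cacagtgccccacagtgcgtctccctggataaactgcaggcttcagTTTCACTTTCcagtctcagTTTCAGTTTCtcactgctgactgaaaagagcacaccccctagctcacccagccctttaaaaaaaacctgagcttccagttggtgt

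Ccnb2 holds 3 CCAAT boxes, Cdc20 has 1 CHR between 2 CCAAT boxes, and Plk1, which encodes a mitotic kinase (−1.19 ± 0.18, adjusted p = 0.00046), has 2 CHR and 1 CCAAT. Mcm6, a subunit of the replicative helicase (−0.59 ± 0.12, adjusted p = 0.0039), holds 3 E2F matches, of which the first pair overlap. Ifit1, an interferon-induced inhibitor of viral translation (−0.89 ± 0.23, adjusted p = 0.019), holds 2 ISRE matches. In the mitosis list, 27 of the 37 promoters of lower genes held a CHR (73.0%) and 29 a CCAAT (78.4%), against 21.3% and 37.4% of the promoters of all genes tested and 27.6% and 37.4% of all promoters. In the replication list 7 of 22 promoters of lower genes held an E2F match (31.8%), against 1.23% of those of genes tested and 0.813% of all promoters. The members that were not called held the motifs about as often: 7 and 5 of 8 promoters for CHR and CCAAT, and 5 of 18 for E2F. The share with a match therefore did not separate called from uncalled members. Among all 1584 lower genes the shares were 21.1% for CHR, 39.1% for CCAAT and 2.39% for E2F, the first 2 close to those of all genes tested. A match is a description of letters only.

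**Figure D2:**
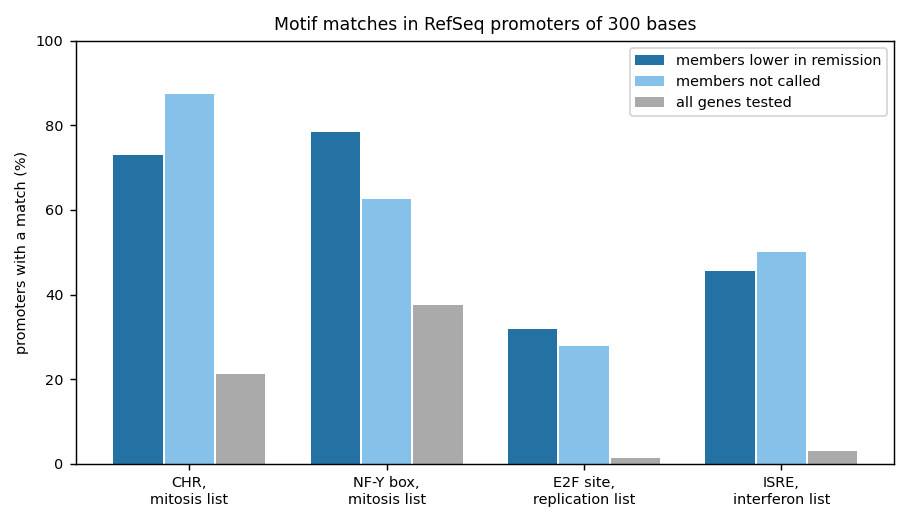
Share of RefSeq promoters of 300 bases (%, vertical axis) that hold a match to the CHR, the NF-Y box, the E2F site or the ISRE, for list members lower in remission, members not called, and all genes tested. In the mitosis list the CHR share is 73.0% in lower members and 87.5% in uncalled members, against 21.3% of all genes tested.

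Molecules that the drugs bind, and their partners, were called in part. Cd80, a target of CTLA4Ig, lay at 5.21, 5.69, 5.49 and 5.70 in remission replicates 1 to 4 and from 6.03 to 7.25 (median 6.73) in nephritic arrays. The ranges did not overlap, and it fell by −1.15 ± 0.28 (adjusted p = 0.012). The call was lost with the tubule score (−0.93 ± 0.31, adjusted p = 0.072 by limma) and without remission replicate 1. Cd86, the other target, stood at 11.67 and 11.29 (remission and nephritic mean) and was not called (0.37 ± 0.13, adjusted p = 0.069). Cd86 was called higher with the tubule score (0.51 ± 0.14, adjusted p = 0.036 by limma). Cd40, the receptor of the ligand that anti-CD154 blocks, lay at 9.81, 9.21, 9.95 and 9.97 in remission replicates 1 to 4 and from 10.38 to 11.04 (median 10.73) in nephritic arrays. Every remission array lay below every nephritic array (−1.01 ± 0.19, adjusted p = 0.0022), near the prenephritic mean of 9.56. Cd40lg and Ctla4 were dim in both groups, with means at or below 5.03. Cd28, the T cell receptor for CD80 and CD86, went the other way. It lay at 6.50, 6.47, 5.35 and 6.73 in remission replicates 1 to 4 and from 4.44 to 4.93 (median 4.84) in nephritic arrays, where it was dim, and was called higher (1.54 ± 0.28, adjusted p = 0.0019). Remission replicate 3 was the lowest of the 4 remission arrays, and the prenephritic arrays ran from 5.61 to 7.36 (median 6.52).

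Of 19 T cell genes 5 were lower and 1, Cd28, higher, and with the tubule score 5 were lower and 3 higher. Cd3g, Cd3e and Cd3d, of the T cell receptor complex, differed by −1.60 ± 0.31, −0.79 ± 0.21 and −0.85 ± 0.23, Cd8a by −0.54 ± 0.14 and Thy1 by −0.68 ± 0.18. The mean level of the list ran from 5.33 to 5.72 in nephritic and from 5.23 to 5.41 in remission arrays, with 5 of 19 dim in both groups. Of 13 NK cell genes 6 were lower, among them Klrb1c (−0.66 ± 0.12), Nkg7 (−0.82 ± 0.20) and Gzmb (−0.80 ± 0.21), which encode an activating receptor, a granule protein and granzyme B. Their mean level ran from 4.95 to 5.41 and from 4.56 to 4.90, with 8 of 13 dim in both groups. Without remission replicate 1, 2 or 3 the NK list had 2, 1 or 2 lower genes, it had 3 without any 1 of nephritic replicates 1, 6 and 7, and the T cell list had 3 or 2 without remission replicate 1 or 2. Gzmb was not called with the tubule score.

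Costimulatory and coinhibitory genes as a group were lower in 19 of 32 and higher in 1, with a median of −0.59. Pdcd1lg2, which encodes PD-L2, an inhibitory ligand for T cells, lay at 4.50, 4.76, 5.45 and 4.94 in remission replicates 1 to 4 and from 6.57 to 9.10 (median 8.36) in nephritic arrays. The lowest nephritic arrays, replicates 3 and 4, were still above every remission array (−3.15 ± 0.40, adjusted p = 0.00016), and the remission mean was below 5.03, where RMA compresses differences. The SLAM family receptors, which bind each other between leukocytes, fell in Ly9 (−1.67 ± 0.26), Slamf7 (−1.86 ± 0.32), Slamf6 (−1.27 ± 0.22) and Cd84 (−1.08 ± 0.17). Cd200r1, an inhibitory receptor of myeloid cells, was at −0.94 ± 0.14. The count of lower genes was 10 without remission replicate 1, 12 without replicate 2, and 11 with the tubule score as a covariate. Genes of peptide presentation were counted by class, and the difference between the classes was not tested. Of 15 MHC class II genes 1 was lower, H2-DMb2 (−0.85 ± 0.20), which edits peptides in the endosome, and 2 were without nephritic replicate 2. Class II counts were 1 lower and 2 higher with the tubule score. H2-Ab1 and H2-Aa, the class II chains themselves, stood at 0.12 ± 0.051 and 0.11 ± 0.048 and were not called. Of 19 class I genes 6 were lower, by small amounts. They included the peptide transporter Tap1 (−0.77 ± 0.17), H2-K1 (−0.32 ± 0.083) and the immunoproteasome subunits Psmb8 (−0.40 ± 0.12) and Psmb9 (−0.46 ± 0.14). Only 2, 1 or 3 class I genes were lower without remission replicate 1, 2 or 3, and 1 with the tubule score, where H2-K1, Psmb8 and Psmb9 were not called.

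**Figure D3:**
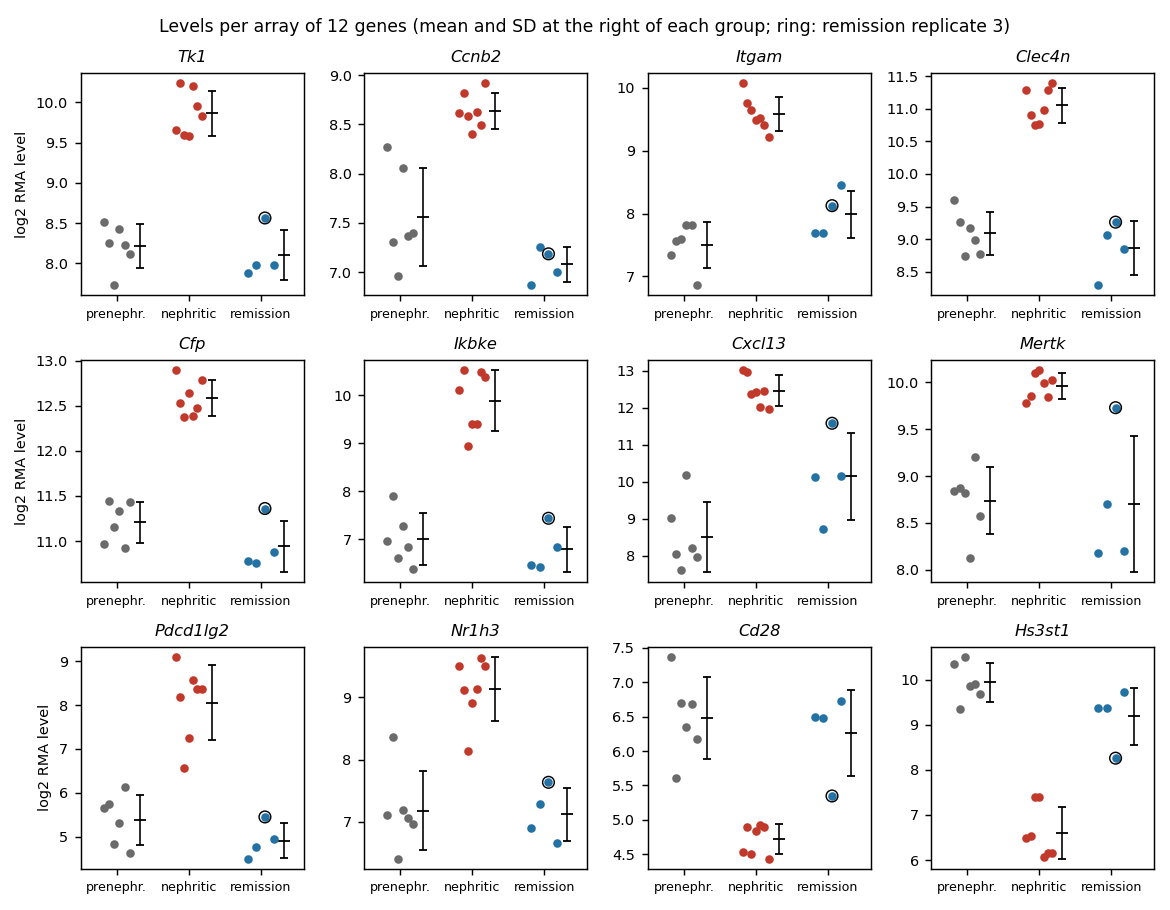
Log2 RMA level of 12 genes in each array (vertical axes) for prenephritic (n = 6), nephritic (n = 7) and remission (n = 4) arrays, with the mean and SD of each group at its right and a ring around remission replicate 3. For each of the 12 genes the remission and nephritic points do not overlap, and for all but Ccnb2 and Itgam remission replicate 3 is the remission array nearest to the nephritic range.

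Receptors that sense damage and immune complexes formed the next group. Of 24 C-type lectin genes 8 were lower and 1 was higher. Clec4n, which encodes Dectin-2, a receptor for fungal mannans that signals through the Fc receptor gamma chain, lay at 8.30, 9.06, 9.26 and 8.84 in remission replicates 1 to 4 and from 10.75 to 11.39 (median 10.98) in nephritic arrays. The groups were more than 1 log2 unit apart at their closest, and the mean was 4.56-fold lower (−2.19 ± 0.19, adjusted p = 1.1e-05). Its neighbours in function, Clec4d and Clec4e, which encode MCL and the damage sensor Mincle, fell by −2.13 ± 0.32 and −2.37 ± 0.46. Clec2g, Clec4a3 and Klra2 differed by −2.39 ± 0.21, −0.44 ± 0.083 and −0.52 ± 0.14, the first with a dim remission mean. The gene that was higher, Clec5a (0.53 ± 0.15), encodes a DAP12-coupled lectin and is named because it was the single increase. Without remission replicate 1 or 2, and with the tubule score, the list had 5 lower genes. Klra2 was not called with the score, and Clec5a was not called without either of those arrays.

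TREM and CD300 receptors and their adaptors were lower in 10 of 16 and higher in 0, with a median of −0.75. Cd300lf and Cd300lb, lipid-binding inhibitory and activating receptors, fell by −1.92 ± 0.20 and −1.87 ± 0.22. The paired receptors Pilra and Pilrb1 fell by −1.34 ± 0.15 and −1.43 ± 0.19, and Pirb, an inhibitory receptor for MHC class I, by −0.71 ± 0.11. Treml2 was at −0.78 ± 0.18, and Trem3 at −2.15 ± 0.48. Trem2, the lipid-sensing receptor of macrophages, and Tyrobp, the DAP12 adaptor that it uses, were not called (−0.34 ± 0.22 and 0.02 ± 0.05). Of 10 Fc receptor genes 3 were lower. Fcgr4, the activating receptor for IgG2 subclasses, differed by −0.53 ± 0.098, the high-affinity receptor Fcgr1 by −0.55 ± 0.16 and Fcrls by −1.00 ± 0.28. The inhibitory Fcgr2b and the low-affinity Fcgr3 were not called (0.31 ± 0.15 and 0.02 ± 0.086), and Fcamr, dim in both groups, was higher (0.27 ± 0.083). Only 1 Fc receptor gene was lower with the tubule score, and without nephritic replicate 1, remission replicate 1 or remission replicate 2. With the score Fcgr1, Fcrls, Fcamr and Treml2 were not called, while Fcgr2b was called higher (0.55 ± 0.13, adjusted p = 0.014 by limma). Fcamr was also not called without any 1 of nephritic replicates 1 and 5 to 7 and remission replicates 2 and 3.

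Complement genes were lower in 6 of 19. Cfp, which encodes properdin, the protein that stabilises the alternative pathway convertase, lay at 10.78, 10.76, 11.36 and 10.87 in remission replicates 1 to 4 and from 12.37 to 12.89 (median 12.53) in nephritic arrays. It is among the brightest genes that changed, and its 4 remission values lay 1 log2 unit or more below every nephritic one (−1.64 ± 0.14, adjusted p = 1.1e-05). Cfb, encoding factor B of the same convertase, fell by −1.80 ± 0.34. The classical pathway behaved differently by gene, with C1ra, a protease subunit, at −0.80 ± 0.18, and C1qa, C1qb and C1qc uncalled at 0.09, 0.10 and 0.05 and above 13 in both group means. Itgam, the alpha chain of complement receptor 3 (CD11b), lay at 7.69, 7.69, 8.13 and 8.45 in remission replicates 1 to 4 and from 9.22 to 10.07 (median 9.52) in nephritic arrays. Replicates 3 and 4 kept the higher remission levels, both below the lowest nephritic array (−1.60 ± 0.19, adjusted p = 0.00013). Itgax (CD11c) and their shared beta chain Itgb2 fell less, by −0.74 ± 0.16 and −0.49 ± 0.094.

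Adhesion genes as a whole were lower in 11 of 29 and higher in 1. Pecam1, an adhesion molecule of endothelium and of some leukocytes, lay at 6.80, 6.77, 6.77 and 6.98 in remission replicates 1 to 4 and from 8.40 to 9.38 (median 8.94) in nephritic arrays. The remission arrays lay close together and more than 1 log2 unit below the nephritic ones (−2.05 ± 0.22, adjusted p = 5.6e-05). It was the 1 lower gene of 22 endothelial genes, whose mean level ran from 6.67 to 7.40 in nephritic and 6.91 to 7.53 in remission arrays. The endothelial list also held 1 higher gene, and 0 with the tubule score. Its median difference was 0.38, with 18 of 22 differences above 0. Itga5, Cd44 and Icam1, which bind fibronectin, hyaluronan and leukocyte integrins, were at −0.72 ± 0.12, −0.80 ± 0.15 and −0.74 ± 0.14. Itga8, an integrin chain of mesangial cells and some fibroblasts, was the gene that was higher (0.87 ± 0.17). Of 27 monocyte genes 12 were lower and 0 higher, with a median of −0.52. Beside Itgam, Cd44 and Clec4e these were led by Gda (−1.64 ± 0.33), the haptoglobin gene Hp (−2.05 ± 0.51) and the coagulation factor X gene F10 (−1.80 ± 0.45). Spn, which encodes CD43, was at −0.47 ± 0.13. The count depended on the remission arrays, with 7, 4 and 5 lower genes without replicate 1, 2 or 3, and 10 with the tubule score, where Spn was not called.

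Genes for the uptake of dying cells changed in part. Of 32 clearance genes 10 were lower and 2 higher. Mertk, the receptor that recognises dying cells through bridging proteins and the one most tied to tissue macrophages, lay at 8.18, 8.70, 9.73 and 8.20 in remission replicates 1 to 4 and from 9.78 to 10.13 (median 10.00) in nephritic arrays. Replicate 3 stood just under the nephritic range, while the other 3 were far below it (−1.26 ± 0.24, adjusted p = 0.0027). Its relatives Axl and Tyro3 were not called (0.07 ± 0.099 and 0.02 ± 0.06). Elmo1 and Elmo2, adaptors that start engulfment, fell by −0.75 ± 0.12 and −1.13 ± 0.13, and the scavenger receptors Scarf1 and Scarb1 by −0.94 ± 0.13 and −0.99 ± 0.15. Among 19 scavenger receptor genes 5 were lower and 1 higher. Olr1 and Cd5l, a receptor for oxidised LDL and a secreted macrophage protein, fell by −2.20 ± 0.36 and −2.13 ± 0.49, each with a dim remission mean, while Cd36, a fatty acid and lipoprotein receptor, rose by 0.55 ± 0.12. Cd163, the haemoglobin scavenger receptor, stood at 9.56 in remission, 8.62 in nephritic and 11.04 in prenephritic arrays (means) and was not called (0.94 ± 0.44, adjusted p = 0.16).

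Secreted signals fell in a few large steps. Of 27 cytokine genes 5 were lower and 0 higher. Il10, which encodes an immune-dampening cytokine that also drives B cells, lay at 5.64, 5.71, 5.59 and 6.69 in remission replicates 1 to 4 and from 7.65 to 10.41 (median 8.37) in nephritic arrays. The nephritic arrays spread over more than 2 log2 units and still did not reach the remission values (−2.86 ± 0.58, adjusted p = 0.0041). The antagonists Il1rn and Il18bp, which block interleukin-1 and interleukin-18, fell by −2.49 ± 0.32 and −1.09 ± 0.18. Tnfsf14 (LIGHT) and Il33 were at −0.96 ± 0.19 and −0.96 ± 0.26, and Il33 was not called with the tubule score. Tnf and Il1b, which encode the classical inflammatory cytokines, were not called (−0.40 ± 0.31 and −0.12 ± 0.13).

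Chemokines were lower in 6 of 29 genes and higher in 1. Cxcl13, which draws B cells into follicles and inflamed tissue, lay at 10.12, 8.73, 11.58 and 10.14 in remission replicates 1 to 4 and from 11.95 to 13.01 (median 12.43) in nephritic arrays. The spread among the remission arrays was wide, with replicate 3 nearest to the nephritic range and replicates 1, 2 and 4 inside the prenephritic range (−2.31 ± 0.48, adjusted p = 0.0048). Its prenephritic arrays ran from 7.62 to 10.19 (median 8.14). The monocyte chemokines Ccl2, Ccl7 and Ccl8 fell by −0.82 ± 0.25, −1.87 ± 0.44 and −1.32 ± 0.36, the constitutive Ccl9 by −0.73 ± 0.09 and the neutrophil chemokine Cxcl3, dim in both groups, by −1.62 ± 0.47. Cxcl12, a stromal chemokine, was the 1 increase (0.70 ± 0.22) and is named for that, but was not called without any 1 of nephritic replicates 1, 3 to 5 and 7 and remission replicates 1, 2 and 4. The list had 3 lower genes without remission replicate 1 and 2 without replicate 2. Among 18 chemokine receptors 6 were lower, with Ccr3 at −2.80 ± 0.50 (dim in remission), Xcr1 at −1.98 ± 0.49, Ccr1 at −1.47 ± 0.31, Cxcr4 at −0.51 ± 0.14, Cxcr5 at −0.40 ± 0.13 and Ccr2, the receptor that brings monocytes from marrow, at −0.41 ± 0.11. Cxcr5 was dim in both groups and lost its call in 21 of 29 alternative settings. This receptor count was 2 and 3 without remission replicate 2 or 3, and 3 with the tubule score. With the score Cxcr4, Cxcr5, Ccr2, Ccl2 and Cxcl12 were not called.

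Cytokine receptors and their signalling genes were lower in 16 of 40 and higher in 1. Il27ra fell by −1.91 ± 0.22, and the interleukin-3 receptor chain gene Csf2rb2 by −0.80 ± 0.14. The signal carriers Stat3 and Jak3 fell by −0.79 ± 0.099 and −1.35 ± 0.23. The NF-kappaB family genes Nfkb2 and Bcl3 fell by −0.87 ± 0.14 and −1.43 ± 0.19. A kappaB-like match (GGGANNNNCC) was in 8 of 17 promoters of the lower genes (47.1%) and in 9 of 23 of uncalled members (39.1%), against 25.4% of those of all genes tested and 20.7% of all promoters. In the costimulatory list the corresponding shares were 7 of 15 (46.7%) and 1 of 7 (14.3%). Without remission replicate 2, 10 of the 40 signalling genes were lower.

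Interferon-stimulated genes were lower in 16 of 35 and higher in 0, with a median of −0.56. Irf7, which encodes the factor that amplifies type I interferon, lay at 9.56, 8.83, 10.26 and 10.05 in remission replicates 1 to 4 and from 10.30 to 11.73 (median 11.13) in nephritic arrays. Remission replicate 3 lay just below nephritic replicate 2, and the other 3 lay further down (−1.41 ± 0.27, adjusted p = 0.0029). Ikbke, the kinase IKK epsilon that acts upstream of it, had one of the largest differences in the table. It lay at 6.47, 6.42, 7.44 and 6.84 in remission replicates 1 to 4 and from 8.95 to 10.52 (median 10.10) in nephritic arrays, a gap of over 1 log2 unit (−3.10 ± 0.33, adjusted p = 4.4e-05). Together these were the 2 lower genes of 16 interferon regulatory factors and kinases (12.5%, near the 10.0% of all genes). There were 4 without remission replicate 4. The RNA and nucleic acid sensors Ifih1, Dhx58 and Zbp1 fell by −0.68 ± 0.13, −0.81 ± 0.17 and −1.08 ± 0.17, and Oas3, which makes a second messenger on viral RNA, by −1.10 ± 0.24. An ISRE was in 5 of 11 promoters of the lower genes (45.5%) and in 10 of 20 of uncalled members (50.0%), against 2.94% of those of all genes tested and 3.44% of all promoters. The count fell from 16 to 7 without remission replicate 2, and to 9 with the tubule score as a covariate.

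Toll-like receptor genes were lower in 4 of 22, with Myd88, the adaptor most of them share, at −0.81 ± 0.12, Tlr8 at −1.13 ± 0.26, Irak3, a brake on the pathway, at −1.13 ± 0.21 and Cd180 at −0.65 ± 0.17. Of 14 inflammasome and pyroptosis genes 6 were lower. Nod1, a sensor of bacterial cell wall, fell by −1.10 ± 0.13 (adjusted p = 9.5e-05), the adaptor Pycard by −0.70 ± 0.11, the pyrin gene Mefv by −1.68 ± 0.36 and the pore gene Gsdmd by −0.53 ± 0.12. Naip2 and Naip5, which are near-identical paralogs whose probes may share signal, were at −0.51 ± 0.13 and −0.53 ± 0.16. Of 7 phagocyte NADPH oxidase genes 4 were lower. The cytosolic parts Ncf1, Ncf4 and Rac2 fell by −0.45 ± 0.14, −0.50 ± 0.096 and −0.61 ± 0.14, and the proton channel Hvcn1 by −1.23 ± 0.16. The membrane core genes Cybb and Cyba were not called (0.15 ± 0.12 and −0.05 ± 0.076), and the difference between subunits was not tested. Ncf1 lost its call in 18 of 30 alternative settings. With the tubule score the Toll-like, inflammasome and oxidase lists had 2, 3 and 2 lower genes, and Tlr8, Cd180, Gsdmd, Naip2, Naip5, Ncf1 and Rac2 were not called.

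Lipid genes were lower in 12 of 29 and higher in 2. Plin2, the coat protein of lipid droplets, lay at 11.27, 11.15, 11.69 and 11.25 in remission replicates 1 to 4 and from 12.26 to 12.63 (median 12.41) in nephritic arrays. Both groups were tight and did not overlap (−1.07 ± 0.098, adjusted p = 1.3e-05). The lipase genes Lipg and Lpl fell by −2.54 ± 0.38 and −0.51 ± 0.083, Acsl5, which activates fatty acids, by −0.33 ± 0.065, and Gpnmb, a marker of lipid-laden macrophages, by −2.25 ± 0.44. Acsl3, an activating enzyme of the same family, rose by 0.72 ± 0.11. Of 22 genes of cholesterol efflux and nuclear receptors 5 were lower. Nr1h3, which encodes LXR alpha, the sensor of oxysterols, lay at 6.90, 7.29, 7.64 and 6.67 in remission replicates 1 to 4 and from 8.14 to 9.64 (median 9.14) in nephritic arrays. The ranges did not overlap (−2.01 ± 0.32, adjusted p = 0.00072). Pparg, the fatty acid sensor, fell by −1.23 ± 0.18 and the transporter Abcg3 by −1.81 ± 0.25. The LXR targets Abcg1 and Abca1 moved little, by −0.36 ± 0.11 (called) and −0.17 ± 0.18 (not called). The efflux count was 3 without any 1 of nephritic replicates 1, 3 and 7 and remission replicates 1 and 2. Cholesterol synthesis had 1 lower gene of 17, Pmvk (−0.45 ± 0.10), and 2 without remission replicate 2. With the tubule score the lipid, efflux and synthesis lists had 7, 3 and 2 lower genes, and Abcg1 was not called. The lipid list had 4 higher genes without remission replicate 4.

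Lysosomal genes were lower in 8 of 37. Acp5, the tartrate-resistant acid phosphatase, fell by −1.57 ± 0.18, the phosphatase Acp2 by −0.92 ± 0.12, and Scarb2, Galns, Ppt1 and Gla by −0.80 ± 0.14, −0.70 ± 0.13, −0.50 ± 0.11 and −0.90 ± 0.21. Cathepsins and cystatins were lower in 4 of 18, with Ctsd, the major aspartic protease, at −0.77 ± 0.11, Cstb at −0.41 ± 0.084, and Cst7 and Ctsk, both dim in remission, at −1.23 ± 0.23 and −0.89 ± 0.23. Proton pump genes were lower in 3 of 15, Atp6v1b2 (−0.62 ± 0.097), Atp6v0d1 (−0.45 ± 0.085) and Atp6v0a2 (−0.36 ± 0.097), the last not called with the tubule score. Iron and heme genes were lower in 8 of 24 and higher in 0. They included Hmox1, which breaks down heme (−1.15 ± 0.22), Blvra of the next step (−0.50 ± 0.11), the phagosomal metal transporter Slc11a1 (−0.55 ± 0.092), Hfe (−0.51 ± 0.097) and the siderophore binder Lcn2 (−2.06 ± 0.44).

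Few genes of energy metabolism were called. Of 63 genes of the respiratory complexes 0 were called by limma in either direction (9 at an unadjusted p under 0.05), and the list's median was 0.18, with 62 of 63 differences above 0 (median over all genes −0.03). Without remission replicate 4 there were 6 higher genes, and 1 or 2 without any 1 of nephritic replicate 2 and prenephritic replicates 3, 5 and 6. Of 69 mitochondrial ribosome genes 1 was lower, Mrpl45 (−0.36 ± 0.083), and of 14 cytosolic ribosomal protein genes 0 were called (2 at an unadjusted p under 0.05). Glycolysis had 1 lower gene of 13, the lactate exporter Slc16a3 (−0.81 ± 0.26), and 1 higher, the glucose transporter Slc2a3 (1.12 ± 0.19). The lower call was lost without any 1 of nephritic replicates 1 and 4 to 7, prenephritic replicates 1 and 3 and remission replicates 1 to 3, and the count was 2 without nephritic replicate 2 or 3 and 3 without remission replicate 4. The mitochondrial ribosome had 2 lower genes without nephritic replicate 2 or 6 and 3 without remission replicate 4. Xdh, xanthine dehydrogenase of purine breakdown, was among the abundant genes that fell (−1.83 ± 0.18, adjusted p = 2.0e-05). Proteasome genes were lower in 16 of 34, by small amounts, with a median of −0.19, led by Psmd14 (−0.34 ± 0.059), Psma6 (−0.30 ± 0.057) and Psmd2 (−0.40 ± 0.079). That count was 6, 7 and 10 without remission replicate 1, 2 or 3, and 13 with the tubule score. Of 28 genes of the unfolded protein response 6 were lower, with the sensor Atf6 at −0.57 ± 0.095 and Xbp1 at −0.31 ± 0.085. That count was 1 with the tubule score, and from 1 to 3 without any 1 of nephritic replicates 1 and 3 to 7, prenephritic replicates 3 and 4 and remission replicates 1, 2 and 4. Slc16a3 and Xbp1 were not called with the tubule score.

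The amino acid response was lower in 8 of 38 genes and higher in 0. Asns, asparagine synthetase and a standard target of ATF4, lay at 5.92, 5.89, 5.78 and 5.62 in remission replicates 1 to 4 and from 6.95 to 7.87 (median 7.29) in nephritic arrays. All remission arrays lay about 1 log2 unit below the lowest nephritic array (−1.54 ± 0.23, adjusted p = 0.00051). Nupr1, a stress-induced chromatin protein, and Mthfd2, the mitochondrial folate enzyme, fell by −1.61 ± 0.25 and −1.08 ± 0.20. Slc7a5, which imports large neutral amino acids, was at −0.58 ± 0.15, and the tRNA synthetases Wars and Gars at −0.34 ± 0.072 and −0.25 ± 0.067. The amino acid response element (TGATGCAA) was in 2 of 7 promoters of the lower genes (28.6%) and 7 of 31 of uncalled members (22.6%), against 0.701% of those of all genes tested and 0.895% of all promoters. The list had 5, 4 or 4 lower genes without remission replicate 1, 2 or 3. Antioxidant genes were lower in 3 of 25 (a share near the 10.0% of all genes) and higher in 1, with Nfe2l2, the regulator of that response, at −0.30 ± 0.086 and the catalase gene Cat at 0.36 ± 0.091. Without remission replicate 1 or 2 that list had 1 lower gene. Slc7a5, Nfe2l2 and Cat were not called with the tubule score.

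Matrix proteases went in both directions. Mmp14, a membrane-bound collagenase, lay at 6.77, 6.46, 7.32 and 7.39 in remission replicates 1 to 4 and from 8.70 to 9.59 (median 8.97) in nephritic arrays. The ranges were over 1 log2 unit apart (−2.05 ± 0.20, adjusted p = 2.1e-05). Mmp13, a secreted collagenase that MMP14 can activate, was the reverse. It lay at 11.87, 11.76, 11.14 and 11.58 in remission replicates 1 to 4 and from 8.82 to 10.42 (median 9.15) in nephritic arrays (2.17 ± 0.25, adjusted p = 9.9e-05). Both were near their prenephritic means of 6.94 and 12.19. Over the list of 30, 6 were lower and 2 higher, with the inhibitor Timp1 (−2.06 ± 0.27, dim in remission) and the sheddase genes Adam8 (−1.50 ± 0.25), Adam12 (−0.43 ± 0.09, dim in both groups) and Adam17 (−0.40 ± 0.094) among the lower ones. Growth factor and matricellular genes were lower in 9 of 36 and higher in 3. Grn, Ltbp3, Tgfbi and Ecm1, which encode progranulin, a TGF-beta binding protein and 2 matrix proteins, fell by −0.45 ± 0.083, −0.56 ± 0.11, −0.26 ± 0.05 and −1.13 ± 0.27, and Vegfb rose by 0.45 ± 0.11. Higher growth factor genes numbered 1 without any 1 of nephritic replicates 2, 4 and 6 and remission replicate 1, and 0 without remission replicate 2. Higher protease genes numbered 1 without nephritic replicate 1, remission replicate 1 or remission replicate 2. Adam17, Ecm1 and Vegfb were not called with the tubule score.

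Genes that mark macrophage identity and activation were mostly not called. Of 31 resident macrophage genes 4 were lower (12.9%, near the 10.0% of all genes) and 1 higher, and of 34 macrophage transcription factors 6 were lower (17.6%). Siglech, a lectin of microglia and plasmacytoid dendritic cells, lay at 9.99, 9.43, 9.06 and 9.38 in remission replicates 1 to 4 and from 6.57 to 8.28 (median 7.57) in nephritic arrays. The 4 remission arrays were all above the nephritic ones (1.92 ± 0.28, adjusted p = 0.00045). Olfml3 was at −1.26 ± 0.32. Among the factors, Batf, an AP-1 partner in activated leukocytes, fell by −1.21 ± 0.18, Cebpb, a driver of inflammatory genes, by −0.83 ± 0.19, and Bcl6 by −0.46 ± 0.14. Without remission replicate 1 or 2, or nephritic replicate 1, the resident list had 1, 1 or 2 lower genes, and the factor list had 3 without remission replicate 2. Genes of alternative activation were lower in 7 of 29 (24.1%, above the 10.0% of all genes) and higher in 0. Acod1, which makes itaconate, and Tgm2, a crosslinking enzyme, fell by −2.40 ± 0.58 and −1.41 ± 0.28, and Arg1 was not called (−0.63 ± 0.43). The members that fell in that list are thus of several programmes, with PD-L2, the interleukin-1 antagonist and interleukin-10 beside Pparg. Of 18 Siglec and Ms4a genes 6 were lower, led by Ms4a4b (−1.49 ± 0.20), Ms4a6d (−0.68 ± 0.10), Ms4a6c (−0.58 ± 0.10) and Ms4a4c (−1.02 ± 0.19). Of 35 immediate early genes, which tissue dissociation can induce, 3 were lower: Fosl2 (−0.94 ± 0.16), Dusp2 (−1.50 ± 0.37) and Socs3 (−1.44 ± 0.38), a share of 8.57%, near that of all genes. That count was 1 without remission replicate 2. With the tubule score the resident list had 1 lower gene, and Olfml3, Cebpb, Bcl6 and Socs3 were not called.

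**Figure D4:**
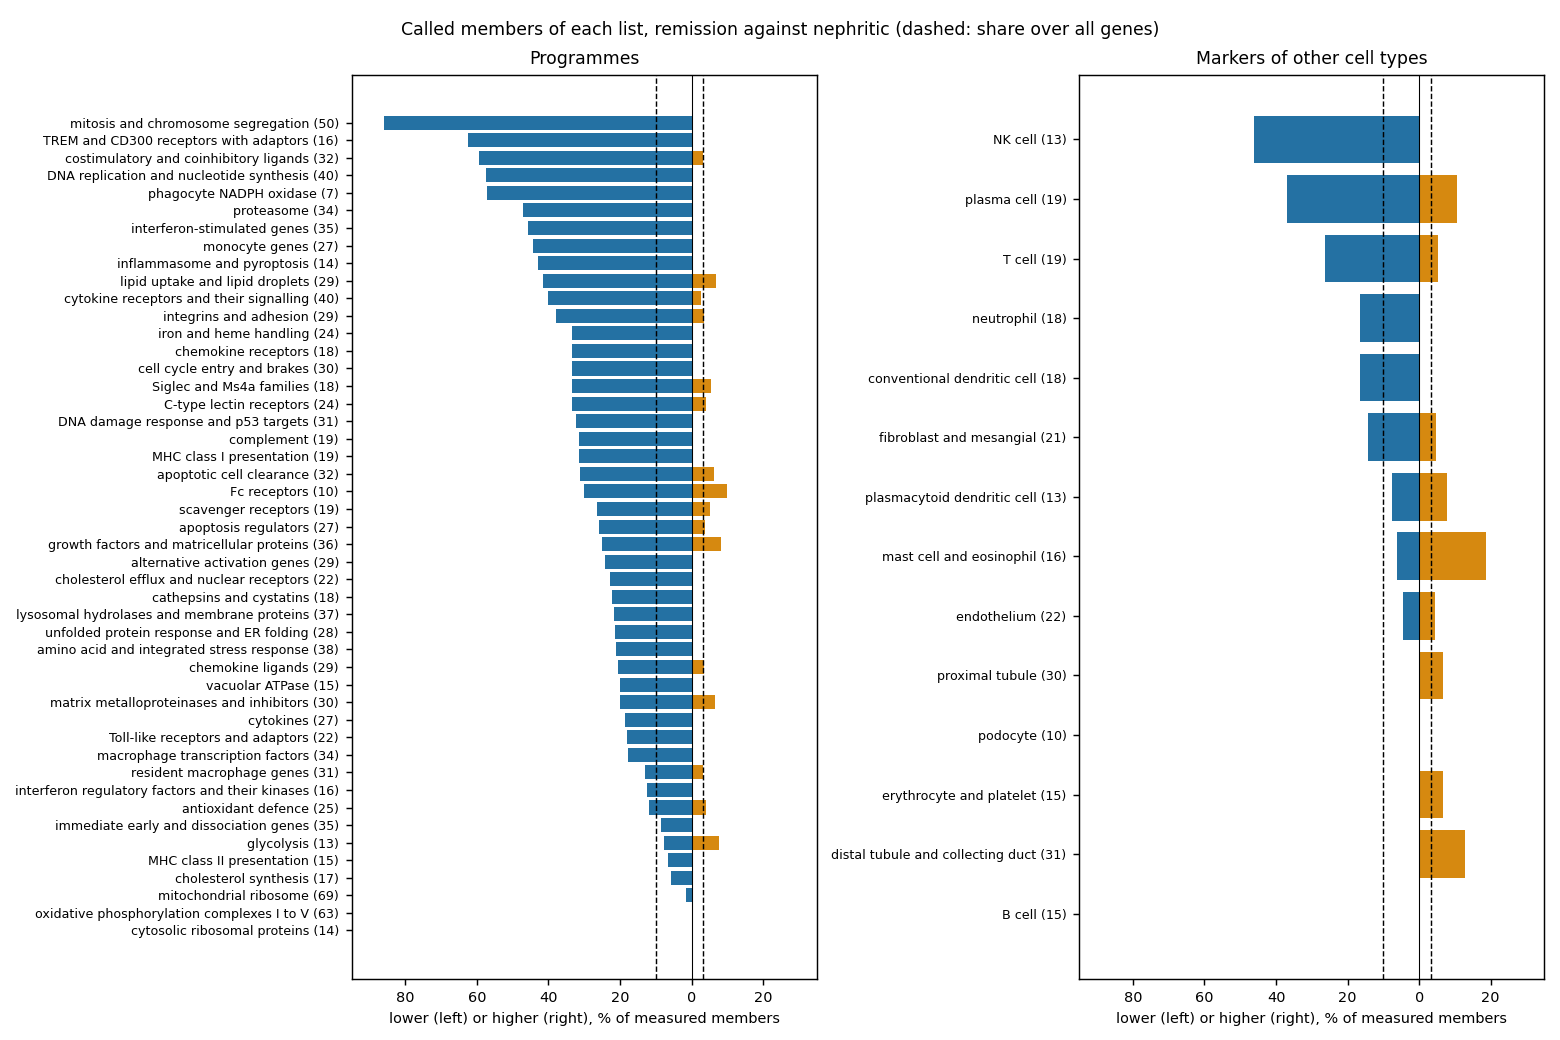
Called members of 47 programmes (left) and 14 lists of markers of other cell types (right), as a percentage of the measured members given in brackets, with genes lower in remission in blue to the left of 0 and higher ones in orange to the right. Dashed lines mark the shares over all genes, 10.0% lower and 3.27% higher, and mitosis, with 43 of 50 lower, has the longest bar.

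Some of the abundant genes that changed belong to none of these groups. P2ry14, a receptor for UDP-glucose that senses damage, fell by −1.60 ± 0.16, Kcnn4, a calcium-activated potassium channel, by −1.81 ± 0.18, Ptpn22, a phosphatase of immune receptor signalling, by −1.33 ± 0.14, Rexo2, a mitochondrial exonuclease, by −1.01 ± 0.10, and Tubb5, a tubulin, by −0.72 ± 0.079. Each had an adjusted p of 5.9e-05 or less. Several of the largest decreases were in receptor genes of leukocytes, with Gpr171 at −3.04 ± 0.45 and Gpr35 at −1.94 ± 0.30. Others were secreted proteins, with the protease genes Htra4 and Adamdec1 at −2.08 ± 0.48 and −2.14 ± 0.42, the chitinase-like gene Chil1 at −1.89 ± 0.43 and the coagulation factor VII gene F7 at −2.19 ± 0.35 (dim in remission).

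The largest increases were divided by whether they were called with the tubule score. Of the 40, 17 were called with the score as a covariate and 23 were not, while 38 of the 40 largest decreases were. The increases include 4 genes of the score itself, Hpd, Calb1, Pvalb and Wfdc15b, for which a fit with the score is no test. Those called included Hs3st1, a sulfotransferase that makes heparan sulfate able to bind antithrombin. It lay at 9.38, 9.38, 8.26 and 9.73 in remission replicates 1 to 4 and from 6.07 to 7.41 (median 6.50) in nephritic arrays. Remission replicate 3 was the lowest of its group and still above every nephritic array, a 5.99-fold higher mean (2.58 ± 0.32, adjusted p = 0.00015). With the score its difference was 3.06 ± 0.29 (adjusted p = 2.2e-05). A related gene, Hs3st3a1, rose by 1.43 ± 0.21, and Nckap5, Glcci1, Srpk3, Itm2a, Cdhr3, Mtmr11 and Zfp599 by 2.09 ± 0.19, 1.37 ± 0.20, 1.49 ± 0.22, 1.67 ± 0.25, 1.49 ± 0.27, 1.39 ± 0.19 and 1.73 ± 0.38. All of these kept their call with the score. Some others of the 17, not named here, kept it with a much smaller difference, such as 0.91 in place of 1.73 or 0.76 in place of 1.67. Abundant genes that rose included Hpgd, which inactivates prostaglandins. It lay at 12.25, 12.09, 11.94 and 12.35 in remission replicates 1 to 4 and from 10.36 to 11.64 (median 10.81) in nephritic arrays, without overlap (1.21 ± 0.22, adjusted p = 0.0018). Myh10, a nonmuscle myosin, rose by 1.01 ± 0.16, Arhgap5 by 0.85 ± 0.13, Rabac1 by 0.40 ± 0.055 and Nnt, a mitochondrial transhydrogenase, by 0.45 ± 0.078.

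The 23 others comprise those 4 genes and 19 that are not in the score. Hpd, a tyrosine-degrading enzyme of the proximal tubule and liver, lay at 10.46, 10.32, 9.71 and 9.32 in remission replicates 1 to 4 and from 5.55 to 8.83 (median 8.36) in nephritic arrays. The ranges did not overlap (2.16 ± 0.64, adjusted p = 0.035). Calb1, the calcium-binding protein of the distal convoluted tubule, lay at 11.39, 11.83, 10.30 and 10.08 in remission replicates 1 to 4 and from 7.28 to 10.13 (median 9.41) in nephritic arrays. Its ranges overlapped, since remission replicate 4 lay below the highest nephritic array (1.91 ± 0.50, adjusted p = 0.019). Pvalb and Wfdc15b rose by 1.99 ± 0.53 and 1.99 ± 0.62. Of the 19, Dnase1, Bhmt, Slc22a29, Ptger3 and Ppargc1a lost their call with the score, with differences of 0.53 to 0.91 in place of 1.64 to 2.36. The mast cell protease gene Mcpt4 lost its call as well, at 1.14 in place of 1.39. As a whole 2 of 30 proximal and 4 of 31 distal tubule genes were called higher and 0 lower, with medians of 1.20 and 0.91. These counts rested on single arrays. They were 1 and 0 without remission replicate 1, 0 and 0 without replicate 2, and 9 and 8 without replicate 4. Without remission replicate 3, nephritic replicate 4 or nephritic replicate 7 they were 1 and 3, without nephritic replicate 5 or 6 they were 9 and 5 or 2 and 7, and without nephritic replicate 2 or prenephritic replicate 6 they were 4 and 4. Over all genes, 239 of the 516 higher and 828 of the 1584 lower ones were called with the score.

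**Figure D5:**
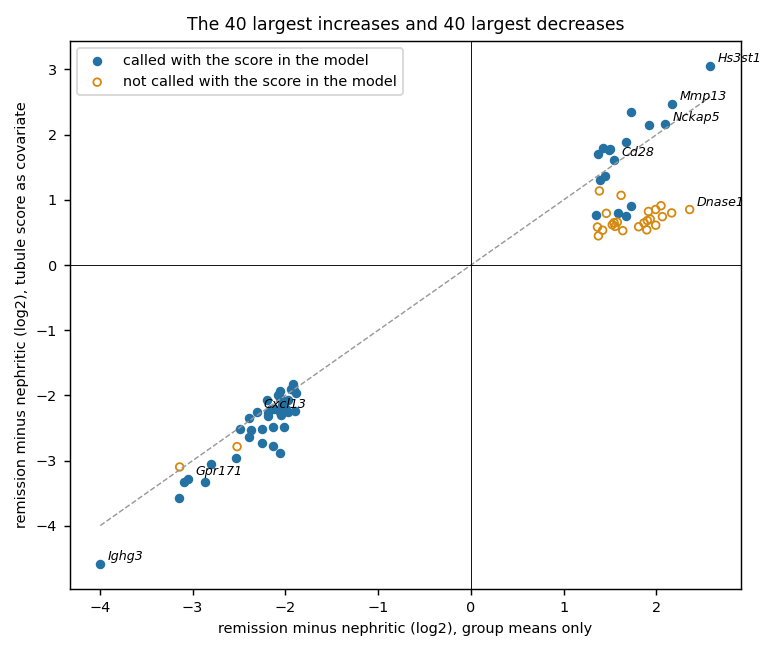
Remission minus nephritic difference (log2) of the 40 largest increases and the 40 largest decreases, from group means only (horizontal axis) and with the tubule score as a covariate (vertical axis). Filled points were called with the score, and the dashed line marks equal values. Of the increases 17 are filled, and some of these lie below the line. The open points among the increases, 4 of which are genes of the score, also lie below it, while 38 of the decreases are filled.

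Immunoglobulin genes, which are not products of macrophages, and other genes of the plasma cell list were also lower. Of 19 plasma cell genes 7 were lower and 2 higher, with a median of −0.95. The 7 include Slamf7 and Xbp1, which are also described above in other lists. Ighg3, the constant region of IgG3, lay at 7.11, 3.68, 6.82 and 4.11 in remission replicates 1 to 4 and from 7.71 to 11.04 (median 9.72) in nephritic arrays. Both groups spread over more than 3 log2 units and did not overlap (−4.00 ± 0.77, adjusted p = 0.0031). Ighg2b fell by −2.06 ± 0.50. Ighg1 was called lower (−3.14 ± 0.93, adjusted p = 0.034), a call lost in 9 of 30 alternative settings, among them the tubule score (adjusted p = 0.091 by limma), and without any 1 of nephritic replicates 1 and 6 and remission replicates 2 and 3. Mzb1 and Pou2af1, a chaperone and a coactivator of antibody-secreting cells, fell by −1.85 ± 0.36 and −2.25 ± 0.52. Tnfrsf17, which encodes BCMA, and Eaf2 rose, by 1.04 ± 0.29 and 1.13 ± 0.30. Neither was called without remission replicate 1 or 2, and Eaf2 was not called with the tubule score. The mean level of the list ran from 8.15 to 9.29 in nephritic and from 7.31 to 8.22 in remission arrays, with 0 of 19 dim in both, and 0 of 15 B cell genes were called, with 3 at an unadjusted p under 0.05 (7.26 to 7.55 and 7.09 to 7.32). Probe sets of immunoglobulin genes can share sequence, so the gene that carries a signal is uncertain.

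The remaining cell type lists held between 0 and 3 lower genes. Neutrophil genes were lower in 3 of 18 (16.7%, against 10.0% of all genes), Fpr2 (−0.76 ± 0.15), Csf3r (−0.85 ± 0.17) and Lcn2, with list means of 6.19 to 6.79 in nephritic and 5.69 to 6.51 in remission arrays. Conventional dendritic cell genes were lower in 3 of 18 (16.7%), Cd207 (−1.56 ± 0.31), Xcr1 and Zbtb46 (−1.16 ± 0.35), with 6.97 to 7.92 and 6.52 to 7.31, and in 1 without remission replicate 2. Mast cell and eosinophil genes were higher in 3 of 16, the mast cell proteases Tpsb2 (0.73 ± 0.11), Mcpt4 (1.39 ± 0.34) and Cma1 (0.71 ± 0.18), and lower in 1, Ccr3, with 5.03 to 5.31 and 5.33 to 5.47. Only 1 was higher with the tubule score, and likewise without remission replicate 2. Mcpt4 (adjusted p = 0.077) and Cma1 (adjusted p = 0.058, both by limma) lost their calls with the score. Plasmacytoid dendritic cell genes had Siglech higher and Lag3 (−1.50 ± 0.23) lower of 13 (7.78 to 8.18 and 7.72 to 7.91), with 2 lower without any 1 of nephritic replicates 5 and 7 and prenephritic replicate 5. Fibroblast and mesangial genes were lower in 3 of 21 (14.3%, against 10.0% of all genes) and higher in 1 (6.64 to 7.16 and 6.62 to 6.97). Without any 1 of nephritic replicates 1, 6 and 7 there was 1 lower fibroblast gene, without remission replicate 2 or 3 there were 0, without nephritic replicate 2 there were 5, and with the tubule score there was 1. In the same arrays podocyte genes were called in 0 of 10, also at an unadjusted p under 0.05 (6.30 to 6.82 and 6.57 to 6.78), and erythrocyte and platelet genes were higher in 1 of 15 (6.39 to 6.84 and 6.83 to 6.92). The part of these cells in the results was not tested.

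The 4 remission arrays differed among themselves in a way that touched many of these genes. Among the 40 largest decreases, replicate 4 was the highest remission array in 16 and replicate 3 in 15, against 6 and 3 for replicates 1 and 2. Among all 1584 lower genes replicate 4 was the highest in 924 and replicate 3 in 379. Among the 40 largest increases, replicate 4 was the lowest remission array in 23 and replicate 3 in 16. Among the 17 of them that were called with the tubule score, replicate 3 was the lowest in 12 and replicate 4 in 4. These 17 were chosen by a fit with that score, which was lowest in replicate 4 among the remission arrays. The counts among the 17 therefore depend on that choice and are no separate observation.

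Prenephritic arrays place the remission levels of single genes. Against them only 1 gene of 15780 was called in remission (0.00634%), Parvg (−1.15 ± 0.16), with 2946 at an unadjusted p under 0.05, and both comparisons share the remission arrays. The median remission minus prenephritic difference was −0.47 in the mitosis list and −0.29 in the replication list, against −0.05 over all genes, with no member called. Of the genes above, Tk1 stood at 8.10 in remission against 8.21 in prenephritic arrays, Clec4n at 8.87 against 9.09, Cfp at 10.94 against 11.21 and Ikbke at 6.79 against 7.00 (group means). Others stayed between the groups. Lipg had a remission mean of 6.98, with 9.52 in nephritic and 5.74 in prenephritic arrays. The corresponding means were 8.05, 10.13 and 6.30 for Htra4, and 10.14, 12.45 and 8.51 for Cxcl13. Remission minus prenephritic was 1.24 ± 0.40, 1.75 ± 0.49 and 1.63 ± 0.49 for these 3, and none was called.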

How the data were processed

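Total RNA of sorted kidney macrophages was hybridised to Affymetrix arrays, with 17 arrays in the table. The values the authors deposited are log2 levels from RMA, a tool named without a version (per the submitters' processing notes). RMA corrects background, brings all arrays to one distribution and compresses differences of dim genes, so it hides any change in the total RNA of a cell. The number of arrays limits the precision.

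Of 16539 probe sets, 15780 carry 1 gene symbol in GEO's platform annotation and were tested without a filter. The rest are 64 controls and 695 without a symbol, and 0 carry several. By Entrez identifier 15752 were found in a RefSeq table of GRCm38.p6. All 17 arrays entered one linear model of group means in limma 3.58.1 in R 4.3.3 (14 residual degrees of freedom), which pools the spread, and tests were two-sided. Benjamini-Hochberg adjustment ran over 15780 genes, with a threshold of 0.05. Differences are log2, remission minus nephritic, ± standard error. A gene is called dim where the mean is below 5.03, the lower quartile of probe set means. The fit was tested on simulated data.

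The comparison and the 61 lists (1547 of 1782 entries measured) were chosen with earlier results of these data known. Lists share genes. Named genes are the 40 largest decreases and increases (without identifier symbols), up to 6 called members per list of smallest p with uncalled relatives, drug targets and macrophage markers, and 15 abundant genes of smallest p per direction. Ly6c1 and Ly6c2 of the markers are not analysed here. Genes named outside this rule are Clec5a, Cxcl12 and Parvg (single calls) and Plk1, Mcm6 and Ifit1 (promoters shown). Alternatives changed the arrays, scaling, variance prior, weights, block, filter and tubule score. Leaving out the 2 remission arrays of highest, or of lowest, tubule score was chosen after seeing the data.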

Additional observations from a re-analysis of the deposited data

Results flagged for a closer look

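Among the 286 genes named, both groups of each were searched for an array that stood apart by Dixon's gap test, and 22 of 572 groups held one. Chance alone gives about 1 in 20, so the search found no more such groups than that share. Values are log2 levels, each with that of the nearest other array of its group. In remission replicate 1 this held for Ccr2 (10.79, nearest 10.92), Foxm1 (5.88, nearest 6.12) and Melk (6.78, nearest 7.10). In remission replicate 3 this held for Parvg (7.26, nearest 7.91) and Tk1 (8.56, nearest 7.98). In remission replicate 4 this held for Cd180 (10.46, nearest 9.66), Gars (10.92, nearest 10.85), Hp (9.19, nearest 7.96), Il10 (6.69, nearest 5.71), Mcm2 (9.10, nearest 8.73) and Pecam1 (6.98, nearest 6.80). In nephritic replicate 1 this held for Hp (11.82, nearest 10.42), Myd88 (11.32, nearest 10.98) and Ppt1 (12.26, nearest 11.98). In nephritic replicate 2 this held for Cd3d (6.63, nearest 5.60), Il18bp (9.16, nearest 9.57), Mcm6 (10.62, nearest 10.96) and Mlkl (8.50, nearest 9.03). In nephritic replicate 3 this held for Ptger3 (5.46, nearest 7.40). In nephritic replicate 6 this held for Itm2a (5.51, nearest 6.27) and Tnf (11.24, nearest 9.84). In nephritic replicate 7 this held for Psmb9 (12.24, nearest 11.86).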

How the results depend on the processing

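The 1.5-fold bound is a setting that asks for a change beyond that size. Outside it and the settings with 2 remission arrays, 180 of 258 called genes named in the text always kept their direction and call. The settings left out of that count cost more calls in part. With the 1.5-fold bound 31 of the 258 kept their call. Without the 2 remission arrays of highest tubule score 80 kept it, and without the 2 of lowest score 239. None of the 258 reversed in any setting. With array weights 1239 genes were higher and 2385 lower, against 516 and 1584. With the 1.5-fold bound the counts were 4 and 34, and with the score of tubule genes as covariate 502 and 904. Without remission replicate 2 and nephritic replicate 3, the arrays at the extremes of that score, they were 206 and 748. Chosen after seeing the data, a further pair left out remission arrays by score. Without the 2 remission arrays of highest score the counts were 19 and 213, and without the 2 of lowest score 712 and 1610. Leaving out each array in turn gave 182 to 981 higher and 839 to 1940 lower genes. With the quantile normalization repeated they were 624 and 1325, with medians subtracted 502 and 1258, and without dim genes 603 and 1661. Apart from the settings with fewer arrays, the cause of these moves was not tested. Genes of low signal over background are limited most, since RMA compresses them.

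With the replicate number as a block the counts were 1064 and 1823, and 251 of the 258 named genes kept their call. The deviations of arrays with the same number correlated by 0.205, 0.446, 0.0532 and 0.535 for numbers 1 to 4, and 5 of 8 arrays correlated best with their own number. Number 3 lay under 0.1, the bound used here, so the numbers were not taken to pair the samples, although the other 3 lay above it. Whether the numbers mark a shared animal or day is not stated in the labels and was not tested. The named genes not called with the block were Cd3e, Clec5a, Cxcr5, Fcamr, Psmb8, Psmb9 and Tnfrsf17.

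Direction changed only for genes that were not called. Adgre1 was at 0.0062 with array weights, 0.023 with repeated quantile normalization, 0.058 with the tubule score, 0.063 without the extreme arrays and 0.092 without the 2 remission arrays of highest score, and Cx3cr1 at −0.012 with weights and −0.0050 with the block. With the tubule score Abca1 was at 0.083 and Cd40lg at 0.034. Without the 2 arrays of highest score Cyba was at 0.062 and Trem2 at 0.16. Without the 2 of lowest score Axl, C1qa, C1qc, Cd68, Cx3cr1, Fcgr3 and Tyrobp were at −0.042, −0.017, −0.052, −0.089, −0.079, −0.045 and −0.042. Without single arrays the values ran from −0.048 to 0.052 for Adgre1, −0.084 to 0.096 for Cx3cr1, −0.011 to 0.061 for Fcgr3, −0.026 to 0.086 for Cd68 and −0.0057 to 0.058 for Tyrobp.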
